A study of Mus musculus with 12 samples.

Results

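The 54 genes described here encode proteins that carry a cell through G2 and mitosis: kinases, cyclins, kinesins, kinetochore and centromere proteins, condensin and cytokinesis factors. They were taken by gene symbol from a list of such genes, and all 54 matched a row among the 55416 Ensembl genes of the count table. All 54 also passed the filter on low counts, among 26420 genes tested. RNA came from SIM-A9, an established mouse microglial line (strain C57BL/6), in 4 groups of 3 libraries each, 12 libraries in all. The wild-type line (WT) and H14, a derivative labelled as a knockout of the protein kinase MOK (KO), were each kept in medium or given 1 µg/mL lipopolysaccharide (LPS, a bacterial cell wall component that activates microglia) over 5 h. The libraries were stranded and made from total RNA after removal of ribosomal RNA. KO stands for this 1 line throughout, in which the effect of MOK and other features of the line cannot be told apart. The labels call the replicates biological without saying whether they were separate cultures, and a p-value here covers the spread among these libraries alone, which may be technical.

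As background, entry into mitosis is driven by CDK1 bound to cyclin B, which the CDC25 phosphatases switch on, and exit follows when the anaphase-promoting complex (APC/C) with CDC20 marks cyclin B and securin for destruction. Transcription of most of these genes peaks in G2 and M. In resting cells the DREAM complex holds them down through a cell cycle homology region (CHR) near the start site, and in cycling cells MYB-MuvB and FOXM1 act through the same element, often beside CCAAT boxes bound by NF-Y. Their RNA is therefore widely read as a measure of cycling cells.

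The promoters are shown first because most of those found held the letters of the CHR, which the choice by symbol did not use. RefSeq promoters on GRCm38.p6, from 250 bases before to 50 after each start, were found for 44 of the 54 genes (46 promoters). A CHR match, TTTGAA or TTCGAA on either strand, occurred in 38 of these 46 promoters (82.6%), against 19.2% of the 32851 promoters in the table. CCAAT on either strand occurred in 78.3% against 37.4%, and both elements together in 71.7% against 7.52%. An E2F pattern, TTCCCGC or TTGGCGC on either strand, was found in 17.4% of member promoters, against 6.81% of all promoters and 50% of the 24 promoters of G1/S and replication genes, which held a CHR match in 20.8%. The reverse strand of TTGGCGC ends in CCAA and can share letters with a CCAAT box. A match is only a description of the letters and does not show binding.

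Of the 36 genes with a CHR match, the match nearest the start lay at a median of 5.5 bases after it (quartiles -18.25 and 17.75), and the CCAAT matches lay at a median position of -67. The stretches below show 5 promoters with both elements and that of Ccnb1, whose window held CCAAT boxes and no CHR match. Each runs 5′ to 3′ along the gene, from 130 bases before to 30 after the start, with CHR and CCAAT letters of either strand in capitals. Their GRCm38.p6 positions are chr9:70421525-70421684 for Ccnb2 (minus strand), chr2:127831830-127831989 for Bub1 (minus), chr2:131186818-131186977 for Cdc25b (plus), chr7:80294321-80294480 for Prc1 (plus), chr2:164769799-164769958 for Ube2c (plus) and chr13:100786457-100786616 for Ccnb1 (minus).
Ccnb2: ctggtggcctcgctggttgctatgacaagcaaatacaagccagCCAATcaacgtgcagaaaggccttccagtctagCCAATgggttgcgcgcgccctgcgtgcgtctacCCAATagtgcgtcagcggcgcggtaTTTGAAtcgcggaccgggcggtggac
Bub1: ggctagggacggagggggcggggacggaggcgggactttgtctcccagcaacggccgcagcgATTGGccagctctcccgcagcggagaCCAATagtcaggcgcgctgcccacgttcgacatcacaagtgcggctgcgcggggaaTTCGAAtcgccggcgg
Cdc25b: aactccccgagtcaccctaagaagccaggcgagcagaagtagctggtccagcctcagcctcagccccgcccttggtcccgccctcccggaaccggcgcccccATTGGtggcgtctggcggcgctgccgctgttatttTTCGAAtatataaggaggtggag
Prc1: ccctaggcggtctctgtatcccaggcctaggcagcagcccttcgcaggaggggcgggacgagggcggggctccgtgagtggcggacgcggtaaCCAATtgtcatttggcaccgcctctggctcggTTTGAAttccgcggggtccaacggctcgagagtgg
Ube2c: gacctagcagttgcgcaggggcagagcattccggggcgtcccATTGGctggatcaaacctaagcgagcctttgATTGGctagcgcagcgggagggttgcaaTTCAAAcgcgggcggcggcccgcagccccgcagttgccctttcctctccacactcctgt
Ccnb1: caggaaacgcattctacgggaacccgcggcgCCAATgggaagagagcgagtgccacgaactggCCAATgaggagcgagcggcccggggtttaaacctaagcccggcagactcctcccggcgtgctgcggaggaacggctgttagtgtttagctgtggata

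In Ccnb2 the CHR match began 5 bases after the start, in Bub1 at 15, in Cdc25b at 8, in Prc1 at -5 and in Ube2c at -29. The windows of Birc5, Ccnb1, Cenpe, Mad2l1, Ncaph, Nek2, Nuf2 and Pttg1 held no CHR match. Genes with and without a match had similar responses: the median log2 fold change under LPS in WT was 0.10 for the 36 with a match and 0.12 for the 8 without, and in KO it was 0.08 and 0.10. These values were not tested against each other.

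Libraries held 39726866 to 72922794 counts, and no member had fewer than 367 counts in any library, while replicate libraries differed by 19.1 to 154.5 times the counting variance (chi-square per degree of freedom). Expression is given as CPM, the count relative to the library's total after TMM scaling, and a gene was called at an edgeR quasi-likelihood adjusted p under 0.05 over all genes tested. Mok itself was low, with means of 3.35 CPM in WT medium, 2.50 in WT LPS, 2.25 in KO medium and 1.52 in KO LPS. Its KO against WT log2 fold change was -0.58 ± 0.19 (SE) in medium (edgeR adjusted p = 0.0501) and -0.72 ± 0.19 under LPS (0.0177), a call lost without WT LPS replicate 1 or 3 or KO LPS replicate 3, adjusted p = 0.0515 to 0.0785. Of 12 microglia and macrophage markers, 11 averaged at least 1 CPM in WT medium, 10 in WT LPS, 11 in KO medium and 8 in KO LPS, and they summed to 757 to 1704 CPM per library. Csf1r, Cd68, Ptprc, Spi1, Trem2 and Adgre1 were above 1 CPM in every group. P2ry12 averaged below 1 CPM in every group, Tmem119 averaged 0.695 CPM in WT LPS and 0.573 in KO LPS, and Aif1 and Cx3cr1 averaged 0.883 and 0.834 CPM in KO LPS. Itgam averaged 20.9 CPM in WT medium and 24.2 in WT LPS, against 3.67 and 2.95 in KO. It shared 68.1% of its stretches of 31 bases (31-mers) with another gene, mostly the protein-coding Gm49368, so its line difference is uncertain. Fibroblast markers summed to at most 2.59 CPM, astrocyte markers to 4.83, neuron markers to 7.45, lymphocyte markers to 22.1, oligodendrocyte markers to 25.9 and endothelial markers to 130.1, nearly all of it Kdr.

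Processed pseudogenes took 12.8% to 14.3% of the counts in KO medium, 6.58% to 13.0% in WT medium and 6.28% to 7.35% in the 6 LPS libraries, and TMM factors were 1.08 to 1.14 in medium and 0.85 to 0.95 under LPS. Their part in the values below was not tested beyond the alternatives given with each. Among the members, Ccnb1 shared 27.7% of its 31-mers with another gene, Cdc20 25.5% and Plk1 14.8%, mostly with the pseudogenes Ccnb1-ps, Gm7856 and Plk-ps1. Reads of these 3 genes could be split between copies, and their values are less certain than those of the other members. Gm7856 averaged 5.91 CPM in WT medium and 10.8 in KO medium, and 2.41 and 2.90 under LPS, and Plk-ps1 averaged 6.60 and 9.73, and 3.14 and 3.15.

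Per kb of exon, the most abundant members over the 12 libraries were Cdc20 (60.9 CPM per kb), the cyclins Ccna2 (60.7), Ccnb2 (59.2) and Ccnb1 (55.3), and the proliferation marker Mki67 (59.9). The lowest were the phosphatase Cdc25c (3.20 CPM per kb), the spindle and kinetochore protein Ska1 (3.87) and the kinetochore subunit Ndc80 (4.03). The mean log2 CPM over the 54 genes was 6.30 ± 0.07 (SD, n = 3) in WT medium, 6.36 ± 0.07 in WT LPS, 6.21 ± 0.03 in KO medium and 6.30 ± 0.16 in KO LPS. In these bulk libraries a change in the share of cells in G2 and M and a change in RNA per cell cannot be told apart. On the TMM scale KO medium (6.18 to 6.24) lay below WT LPS (6.29 to 6.42) without overlap, while every other pair of groups overlapped. The widest spread was in KO LPS, where the 3 libraries read 6.14, 6.46 and 6.29. With library size alone, without TMM factors, the order turned. There KO medium (6.32 to 6.43) and WT medium (6.40 to 6.52) both lay above WT LPS (6.13 to 6.22). WT medium also lay above KO LPS (6.02 to 6.38) in that setting. KO LPS replicate 2 was the highest of its group for 50 of the 54 genes, and 10.4% of its counts lay in genes with no symbol, where the remaining 11 libraries had 4.88% to 8.18%.

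**Figure D1:**
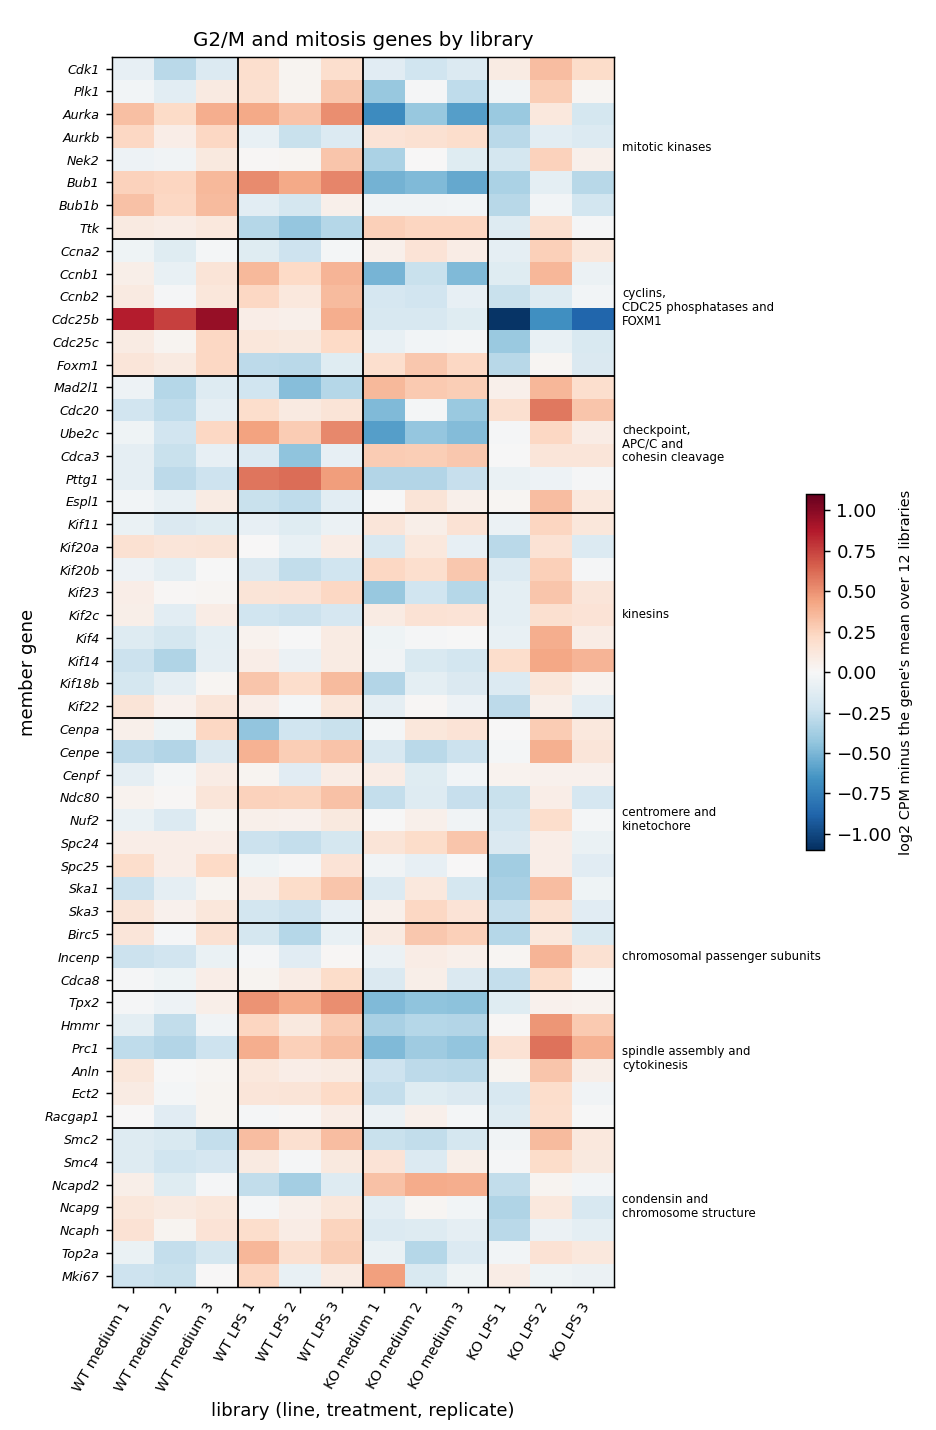
Heat map of the 54 genes (rows, grouped by role) in the 12 libraries (columns, 3 per group), coloured by log2 CPM minus the gene's mean over the 12 libraries, red above and blue below. Cdc25b, Aurka and Bub1 separate the lines, Prc1 and Cenpe separate LPS from medium, and KO LPS replicate 2 is the highest of its group for 50 genes.

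The effect of 5 h of LPS was compared within each line. In WT, 11 of the 54 genes rose and 7 fell, among them a rise of the spindle midzone protein Prc1 and the securin Pttg1 and a fall of the phosphatase Cdc25b, the kinase Ttk and the transcription factor Foxm1. In KO, 17 rose and 7 fell. The changes were small: no gene reached 2-fold in either line, 3 reached 1.5-fold in WT and 5 in KO, and the median size was 1.16-fold in WT and 1.15-fold in KO, against 1.24-fold in both for 8311 protein-coding genes in the same range of mean CPM. Among all genes tested, 16.3% were called higher and 16.3% lower in WT and 25.3% and 26.8% in KO. Among the protein-coding genes of like abundance, 36.7% and 14.3% were called in WT and 41.8% and 13.5% in KO, and the members' shares of rises (11 and 17 of 54) lay below that background.

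The median log2 fold change of the members was 0.10 in WT and 0.07 in KO, with -0.07 and -0.03 over all genes tested. Without TMM factors (library size alone) the median of all genes moved to -0.40 in WT and -0.29 in KO, and the members' calls became 2 higher and 26 lower in WT and 5 and 24 in KO. Restricting filter and scaling to protein-coding genes gave 9 higher and 14 lower in WT and 12 and 15 in KO. The split of rises and falls therefore depended on the scaling, and the values below are relative to the TMM scale. The 2 LPS comparisons share no library: 10 genes rose in both lines (90.9% of the WT rises, 58.8% of the KO rises), 5 fell in both (71.4% of each), none was called in opposite directions, and 46 of 54 had the same sign. The same shares were not computed over all genes tested, so this agreement cannot be called particular to the members.

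**Figure D2:**
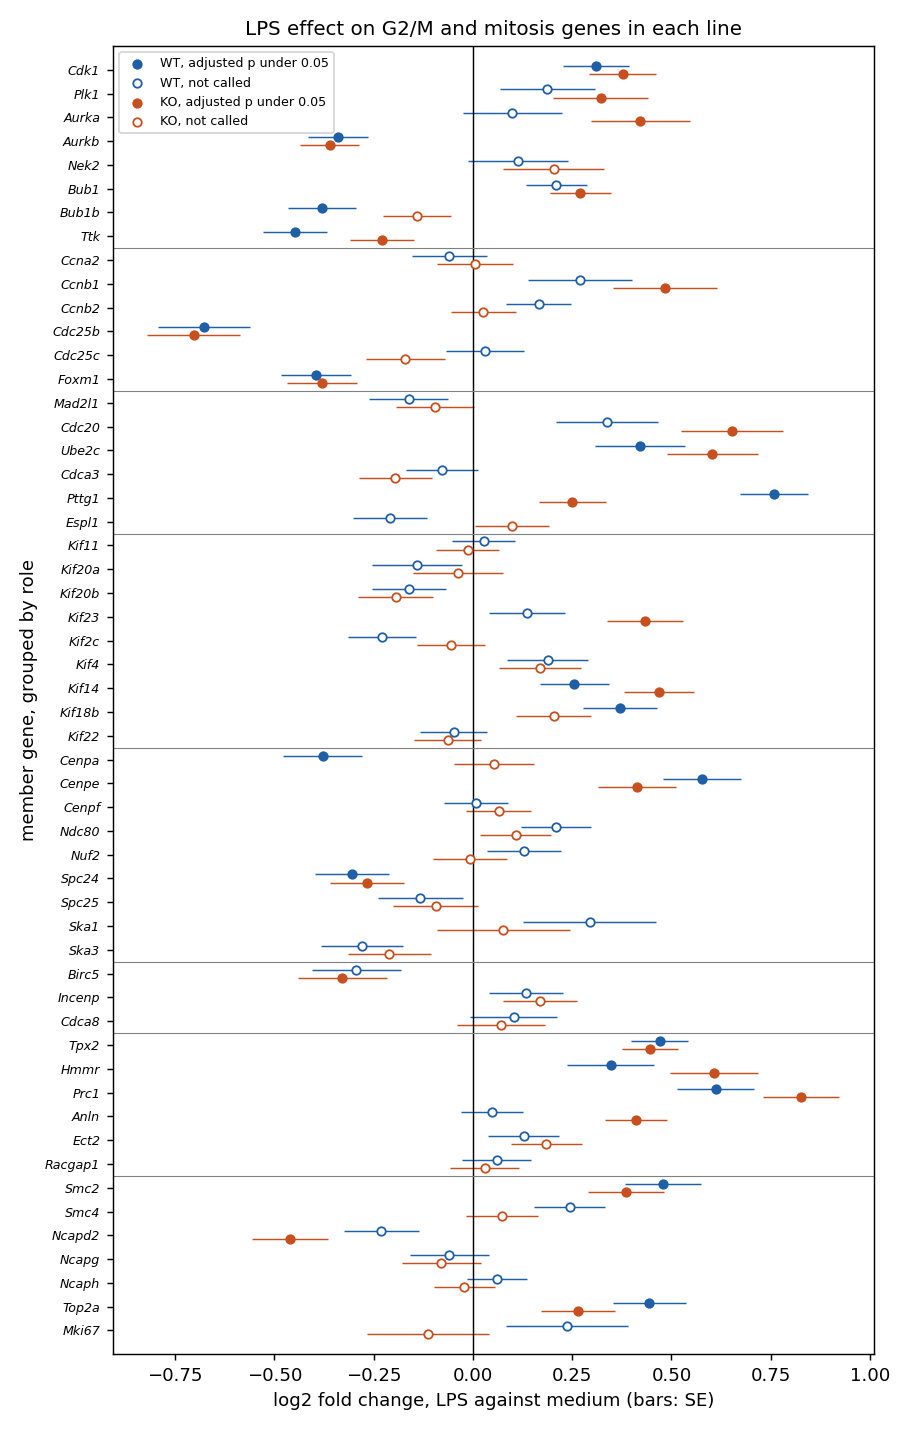
Log2 fold change, LPS against medium, for each of the 54 genes (rows, grouped by role) in WT (blue) and KO (orange), with bars of 1 SE and filled points where the edgeR adjusted p was under 0.05. Filled points lie on both sides of 0, from Cdc25b (-0.68 in WT, -0.70 in KO) to Pttg1 in WT (0.76) and Prc1 in KO (0.83).

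Among the 8 mitotic kinases, 1 rose and 3 fell in WT, and 4 rose and 2 fell in KO. Cdk1 read 83.7, 72.4 and 79.9 CPM in WT medium and 101, 90.9 and 101 in WT LPS. KO libraries of Cdk1 read 81.7, 76.5 and 79.9 CPM in medium and 94.8, 112 and 102 under LPS. All LPS libraries of this kinase, the engine of mitotic entry, lay above those in medium in both lines, with log2 fold changes of 0.31 ± 0.08 in WT (edgeR adjusted p = 0.0155) and 0.38 ± 0.08 in KO (0.00386). The WT call was lost without WT medium replicate 2 or WT LPS replicate 1 or 3, adjusted p = 0.0578 to 0.137, and its direction turned with library size alone (-0.03). Aurkb read 83.3, 74.6 and 83.2 CPM in WT medium and 66.9, 59.8 and 63.8 in WT LPS. KO libraries of Aurkb read 78.7, 79.9 and 81.3 CPM in medium and 57.6, 65.5 and 63.8 under LPS. Aurkb, the kinase of the chromosomal passenger complex that corrects chromosome attachment, fell in both lines without overlap of the groups (-0.34 ± 0.07, adjusted p = 0.00534, and -0.36 ± 0.07, 0.00289). Ttk, the spindle checkpoint kinase also called MPS1, moved the same way: 40.4, 39.8 and 40.8 CPM in WT medium and 30.3, 28 and 30.4 in WT LPS, and 45.1, 44.3 and 44.2 in KO medium and 34.2, 42.4 and 37.4 in KO LPS. Its log2 fold change was -0.45 ± 0.08 in WT (adjusted p = 0.00142) and -0.23 ± 0.08 in KO (0.0321), the latter lost without KO LPS replicate 1 or 3, adjusted p = 0.0952 to 0.146.

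Of the remaining kinases, the spindle pole kinase Aurka rose in KO (0.42 ± 0.12, edgeR adjusted p = 0.0153; lost without KO medium replicate 1 or 3 or KO LPS replicate 2, adjusted p = 0.0534 to 0.0865). In WT its value was 0.10 ± 0.12 (0.556), and the difference between the lines was 0.32 ± 0.18 (adjusted p = 0.454). Plk1 read 87.5, 82.1 and 95.4 CPM in WT medium and 101, 91.3 and 109.7 in WT LPS. KO libraries of Plk1 read 66.7, 88.4 and 73.4 CPM in medium and 87, 108 and 90.7 under LPS. Plk1, which acts from mitotic entry to cytokinesis, passed the test in KO (0.32 ± 0.12, 0.0418) with overlapping libraries, and that call was lost without WT medium replicate 1, 2 or 3, WT LPS replicate 1, KO medium replicate 1 or 3 or KO LPS replicate 2 or 3, adjusted p = 0.0552 to 0.228. Its WT value was 0.19 ± 0.12 (0.246). The checkpoint kinase Bub1 was at 0.21 ± 0.08 in WT (0.0558) and 0.27 ± 0.08 in KO (0.0130), a KO call lost without KO medium replicate 1, 2 or 3, adjusted p = 0.0542 to 0.0961. Its relative Bub1b, a part of the mitotic checkpoint complex, fell in WT (-0.38 ± 0.09, 0.00624) and was at -0.14 ± 0.09 in KO (0.191), while the centrosome kinase Nek2 passed in neither line (0.11 and 0.20).

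The cyclins, CDC25 phosphatases and Foxm1 counted 0 rises and 2 falls among 6 genes in WT, and 1 rise and 2 falls in KO. Cdc25b read 148, 137 and 158 CPM in WT medium and 85.5, 84.4 and 107 in WT LPS. KO libraries of Cdc25b read 71.8, 72.1 and 74.1 CPM in medium and 38.5, 50.9 and 44.5 under LPS. Cdc25b, which activates CDK1 at the start of mitosis, gave the lowest log2 fold change of the 54 in both lines, -0.68 ± 0.12 in WT (edgeR adjusted p = 0.00103) and -0.70 ± 0.12 in KO (0.000807), and no LPS library reached the medium libraries of its own line. Foxm1 read 76.9, 75 and 82.4 CPM in WT medium and 57.4, 57 and 63.9 in WT LPS. KO libraries of Foxm1 read 79.9, 86.2 and 82.5 CPM in medium and 56.8, 71.3 and 62.9 under LPS. Foxm1, the forkhead factor that drives G2/M transcription, fell by a similar amount in both lines, -0.39 ± 0.09 (0.00602) and -0.38 ± 0.09 (0.00480). Of the cyclins, Ccnb1 was at 0.27 ± 0.13 in WT (0.132) and rose in KO (0.48 ± 0.13, 0.0101), a call lost without KO medium replicate 1 or 3, adjusted p = 0.0521 to 0.0560.

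Ccnb1 read 239, 216 and 253 CPM in WT medium and 292, 265 and 296 in WT LPS, and 161, 192 and 163 and 208, 295 and 218 in KO, with KO LPS replicate 2 the highest of its group. Ccnb2, the other B-type cyclin, did not pass in either line (0.17 ± 0.08, edgeR adjusted p = 0.141, and 0.03 ± 0.08, 0.811). Ccna2, the cyclin of S phase and G2, was at -0.06 ± 0.10 (0.656) and 0.01 ± 0.10 (0.968), with libraries of 239, 225 and 244 and 226, 210.4 and 243 CPM in WT and 256, 275 and 261 and 230.4, 295 and 269 in KO that overlapped in both lines. Cdc25c, a further CDK1-activating phosphatase, was at 0.03 ± 0.10 and -0.17 ± 0.10, neither called.

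Among the 6 checkpoint, APC/C and cohesin-cleavage genes, 2 rose in WT and 3 in KO, and none fell. Pttg1 read 13.3, 11.6 and 12.1 CPM in WT medium and 21.3, 21.7 and 19.6 in WT LPS. KO libraries of Pttg1 read 11.4, 11.4 and 11.9 CPM in medium and 13.5, 13.6 and 14.1 under LPS. Pttg1, securin, the inhibitor that APC/C destroys to free separase, had the highest log2 fold change of the 54 in WT, 0.76 ± 0.08 (edgeR adjusted p = 4.32e-05). In KO its value was 0.25 ± 0.08 (0.0282), a call lost without WT medium replicate 1, 2 or 3, KO medium replicate 1, 2 or 3 or KO LPS replicate 1 or 3, adjusted p = 0.0530 to 0.149 and turned in direction with library size alone (-0.01). Ube2c read 65, 58.2 and 78.6 CPM in WT medium and 91.7, 81.5 and 96.9 in WT LPS. KO libraries of Ube2c read 44.2, 50.1 and 48.2 CPM in medium and 66.6, 78.7 and 71.2 under LPS. Ube2c, the ubiquitin-conjugating enzyme of APC/C, rose in WT (0.42 ± 0.11, 0.0164) and in KO (0.60 ± 0.11, 0.00187), and the WT call was lost without WT medium replicate 1 or 2, WT LPS replicate 1 or 3 or KO medium replicate 3, adjusted p = 0.0524 to 0.142. Cdc20, the APC/C activator of metaphase, rose in KO from 79.6, 109.9 and 84.1 to 126, 166 and 137 CPM (0.65 ± 0.13, 0.00232).

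In WT, Cdc20 went from 96.2, 92 and 104 to 128, 119 and 123 CPM, a difference that missed the threshold (0.34 ± 0.13, edgeR adjusted p = 0.0635) although the groups did not overlap. Mad2l1, the checkpoint inhibitor of CDC20, Cdca3, which triggers mitotic entry by promoting loss of WEE1, and Espl1, separase, were not called in either line, with log2 fold changes of -0.16, -0.08 and -0.21 in WT and -0.09, -0.20 and 0.10 in KO.

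The 9 kinesins gave 2 rises and no fall in each line. Kif14, a motor of the midbody, read 53.1, 49.6 and 58.2 CPM in WT medium and 65.9, 59.6 and 66.6 in WT LPS, and 60.7, 55.5 and 54.4 and 71.4, 83.9 and 80.8 in KO. Its log2 fold change was 0.47 ± 0.09 in KO (edgeR adjusted p = 0.00174) and 0.26 ± 0.09 in WT (0.0436). The WT call of Kif14 was lost without WT medium replicate 1 or 2, WT LPS replicate 1 or 3, KO medium replicate 1, 2 or 3 or KO LPS replicate 3, adjusted p = 0.0573 to 0.357, and its direction turned with library size alone (-0.08). Kif18b, a microtubule-end kinesin, rose in WT (0.37 ± 0.09, 0.0116; lost without WT medium replicate 1 or 2, adjusted p = 0.0858 to 0.107), and Kif23, the centralspindlin motor of cytokinesis, rose in KO (0.43 ± 0.10, 0.00383). Kif11, the motor that separates the spindle poles, had overlapping libraries in both lines, 142, 134 and 136 against 141, 136 and 143 CPM in WT and 164, 156 and 167 against 144, 177 and 163 in KO, at 0.03 ± 0.08 (0.810) and -0.01 ± 0.08 (0.903). The other kinesins, Kif20a, Kif20b, Kif2c, Kif4 and Kif22, lay between -0.23 (Kif2c) and 0.19 (Kif4) in WT and between -0.19 (Kif20b) and 0.17 (Kif4) in KO, none of them called.

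At the centromere and kinetochore, 1 of 9 genes rose and 2 fell in WT, and 1 rose and 1 fell in KO. Cenpe read 103, 101 and 113 CPM in WT medium and 164, 152 and 156 in WT LPS. KO libraries of Cenpe read 111, 102 and 107 CPM in medium and 124, 165 and 138 under LPS. Cenpe, the kinetochore motor that moves chromosomes to the metaphase plate, rose in both lines, 0.58 ± 0.10 (edgeR adjusted p = 0.000976) and 0.41 ± 0.10 (0.00530). Cenpa, the histone H3 variant of centromeres, went the other way in WT: its libraries read 132, 123 and 149 CPM in medium and 94.2, 109 and 107 under LPS (-0.38 ± 0.10, 0.0148; lost without WT LPS replicate 1, adjusted p = 0.0748), and in KO they read 125, 139 and 141 and 128, 154 and 138 (0.05 ± 0.10, 0.679). Spc24, a subunit of the NDC80 complex and the fall in both lines, was at -0.30 ± 0.09 (0.0287; lost without WT LPS replicate 1, 2 or 3, adjusted p = 0.0671 to 0.0896) and -0.27 ± 0.09 (0.0317; lost without KO medium replicate 3 or KO LPS replicate 1 or 3, adjusted p = 0.0850 to 0.131). Its partners in the NDC80 complex, Ndc80, Nuf2 and Spc25, were at 0.21, 0.13 and -0.13 in WT and 0.11, -0.01 and -0.09 in KO, none of them called. Cenpf, a kinetochore and nuclear envelope protein, was nearly level, 0.01 ± 0.08 (0.945) and 0.06 ± 0.08 (0.528), and Ska1 and Ska3 passed in neither line (0.29 and -0.28 in WT).

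Of the 6 spindle assembly and cytokinesis genes, 3 rose in WT and 4 in KO, none fell, and all 6 log2 fold changes were positive in both lines on the TMM scale. Over all 26420 genes tested, 12121 were positive in WT and 12697 in KO. With library size alone the called values of these spindle and cytokinesis genes stayed positive but were smaller, from 0.0095 for Hmmr in WT to 0.57 for Prc1 in KO. The calls of Tpx2 (edgeR adjusted p = 0.138) and Hmmr (0.953) in WT and Anln in KO (0.127) were lost. Signs of the uncalled values in that setting are not given here. Prc1 read 62.8, 61.2 and 65.1 CPM in WT medium and 101, 91.8 and 96.1 in WT LPS. KO libraries of Prc1 read 54.6, 58.2 and 56.6 CPM in medium and 85.4, 115 and 99.5 under LPS. Prc1, which bundles the microtubules of the midzone, changed by 0.61 ± 0.10 in WT (edgeR adjusted p = 0.000580) and 0.83 ± 0.10 in KO (6.64e-05), the highest value of the 54 in KO, and its call held under every alternative run in both lines. Tpx2 read 153, 149 and 162 CPM in WT medium and 218, 204 and 221 in WT LPS. KO libraries of Tpx2 read 110.2, 114 and 113 CPM in medium and 141, 159.6 and 159 under LPS. Tpx2, the microtubule-bound activator of Aurora A, rose in both lines (0.47 ± 0.07, 0.000413, and 0.45 ± 0.07, 0.000615). Hmmr, a spindle and hyaluronan-binding protein, rose in KO (0.61 ± 0.11, 0.00151) and in WT (0.35 ± 0.11, 0.0329; lost without WT medium replicate 1 or 2, WT LPS replicate 1 or 3 or KO medium replicate 1, 2 or 3, adjusted p = 0.0821 to 0.229). Anln, the contractile-ring scaffold anillin, rose in KO (0.41 ± 0.08, 0.00196) and was at 0.05 ± 0.08 in WT. Ect2 and Racgap1, which turn on RhoA at the cell equator, were called in neither line (0.13 and 0.06 in WT, 0.18 and 0.03 in KO).

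Among 7 condensin and chromosome-structure genes, 2 rose in WT, and 2 rose and 1 fell in KO. Top2a read 316, 277 and 290.1 CPM in WT medium and 428, 374 and 399 in WT LPS. KO libraries of Top2a read 315, 266 and 298 CPM in medium and 325, 370.4 and 359.8 under LPS. Top2a, the topoisomerase that untangles sister chromatids, rose in WT (0.44 ± 0.09, edgeR adjusted p = 0.00397) and in KO (0.26 ± 0.09, 0.0327; lost without WT medium replicate 1, 2 or 3, KO medium replicate 2 or 3 or KO LPS replicate 2 or 3, adjusted p = 0.0540 to 0.179). Smc2, the core ATPase of condensin, rose in both lines (0.48 ± 0.10, 0.00292, and 0.39 ± 0.10, 0.00651), whereas Ncapd2, a condensin I subunit, fell in KO (-0.46 ± 0.09, 0.00282) and was at -0.23 ± 0.09 in WT (0.0824). The condensin subunits Smc4, Ncapg and Ncaph were called in neither line (0.24, -0.06 and 0.06 in WT, 0.07, -0.08 and -0.02 in KO). Mki67 read 512, 506 and 600.4 CPM in WT medium and 705, 566 and 636 in WT LPS, and 819, 531 and 578 and 634, 579 and 571 in KO, overlapping in both lines (0.24 ± 0.15, 0.251, and -0.11 ± 0.15, 0.565). Of the chromosomal passenger subunits, Birc5, survivin, was at -0.29 ± 0.11 in WT (0.0644) and -0.33 ± 0.11 in KO (0.0286), a KO call with overlapping libraries that was lost without KO medium replicate 2 or 3 or KO LPS replicate 1 or 3, adjusted p = 0.0509 to 0.122, and Incenp and Cdca8 were not called (0.13 and 0.10 in WT, 0.17 and 0.07 in KO).

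Calls kept without any single library numbered 11 of 18 in WT (Aurkb, Bub1b, Ttk, Cdc25b, Foxm1, Pttg1, Cenpe, Tpx2, Prc1, Smc2 and Top2a) and 15 of 24 in KO. Under every alternative, 7 of 18 were kept in WT (Aurkb, Bub1b, Ttk, Cdc25b, Foxm1, Pttg1 and Prc1) and 2 of 24 in KO (Cdc25b and Prc1). Of the 11 in WT, library size alone ended the calls of Cenpe (edgeR adjusted p = 0.0720), Tpx2 (0.138), Smc2 (0.231) and Top2a (0.275). Of the 15 in KO, it ended those of Cdk1 (0.198), Kif23 (0.169), Kif14 (0.0548), Cenpe (0.204), Anln (0.127) and Smc2 (0.251). Rises in WT numbered 7 without WT medium replicate 1, WT LPS replicate 1 or WT LPS replicate 3, and 17 without KO LPS replicate 2. Without WT medium replicate 2 there were 6 rises and 11 falls, and leaving out any 1 KO medium library also gave 11 falls. In KO there were 11 rises without KO medium replicate 3, and 4 falls without KO LPS replicate 1 or 3. Without KO LPS replicate 2, the library highest in its group for most members, the KO comparison had 14 rises and 10 falls. With the log2 share of processed pseudogenes as a covariate, KO kept 1 rise and 1 fall, and the share itself separates the treatments there (12.8% to 14.3% in medium, 6.64% to 7.35% under LPS), so that the covariate and LPS cannot be told apart.

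**Figure D3:**
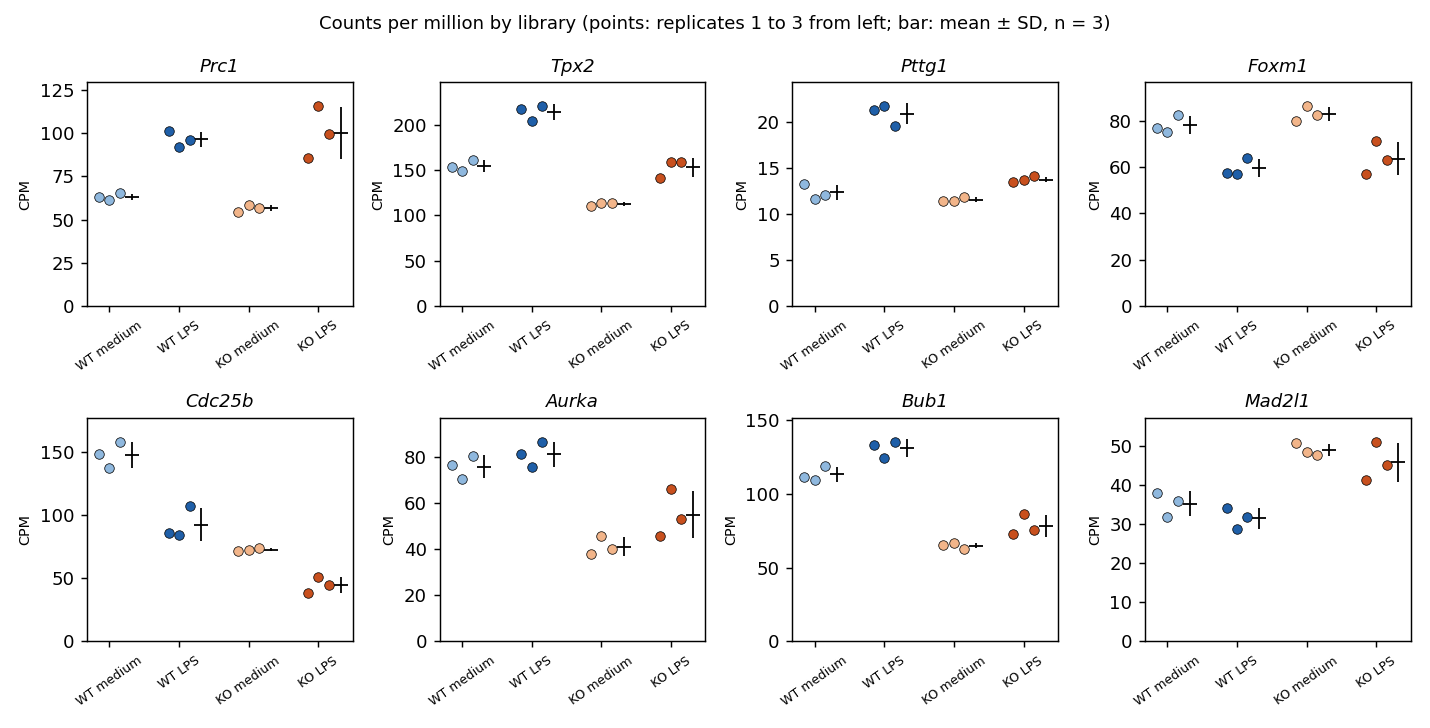
CPM per library of 8 genes, with points for replicates 1 to 3 from left to right in each group and a bar for the mean ± SD (n = 3). Prc1, Tpx2 and Pttg1 are higher and Foxm1 and Cdc25b lower under LPS than in medium in both lines, Cdc25b, Aurka and Bub1 are lower in KO, and Mad2l1 is higher in KO.

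The lines were compared within each treatment, to ask how the H14 line differed from WT. In medium 4 members were higher in KO and 11 lower, and under LPS 7 were higher and 9 lower. Cdc25b, Bub1, Aurka and Tpx2 were lower in KO in both conditions, and Mad2l1 and Cdca3 were higher in both. Among all genes tested, 6.88% were called higher and 12.3% lower in KO in medium, and 7.87% and 12.7% under LPS. Among protein-coding genes of like abundance these shares were 9.2% and 24.5%, and 14.7% and 25.4%, and the members' counts lay near or below that background. The median log2 fold change of the members was -0.03 in medium and -0.06 under LPS, with 0.04 and 0.07 over all genes, and only Cdc25b passed 2-fold.

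These 2 comparisons share no library. Of the members lower in KO, 6 were lower in both (54.5% of those in medium and 66.7% of those under LPS: Aurka, Bub1, Cdc25b, Ncaph, Ndc80 and Tpx2), and 2 were higher in both (50% and 28.6%). None was called in opposite directions, and 44 of 54 had the same sign. For the lines, too, such shares were not computed over all genes tested. Under LPS the split was 4 higher and 9 lower with RLE scaling and 11 higher and 8 lower with library size alone. Leaving out KO LPS replicate 2 gave 4 higher and 15 lower, and leaving out KO LPS replicate 1 gave 11 and 8. Without WT LPS replicate 1 or 2 the number higher was 3, and without KO LPS replicate 3 it was 4. In medium the number lower was 7 without WT medium replicate 1, KO medium replicate 1 or KO medium replicate 3, and 6 without WT medium replicate 3.

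**Figure D4:**
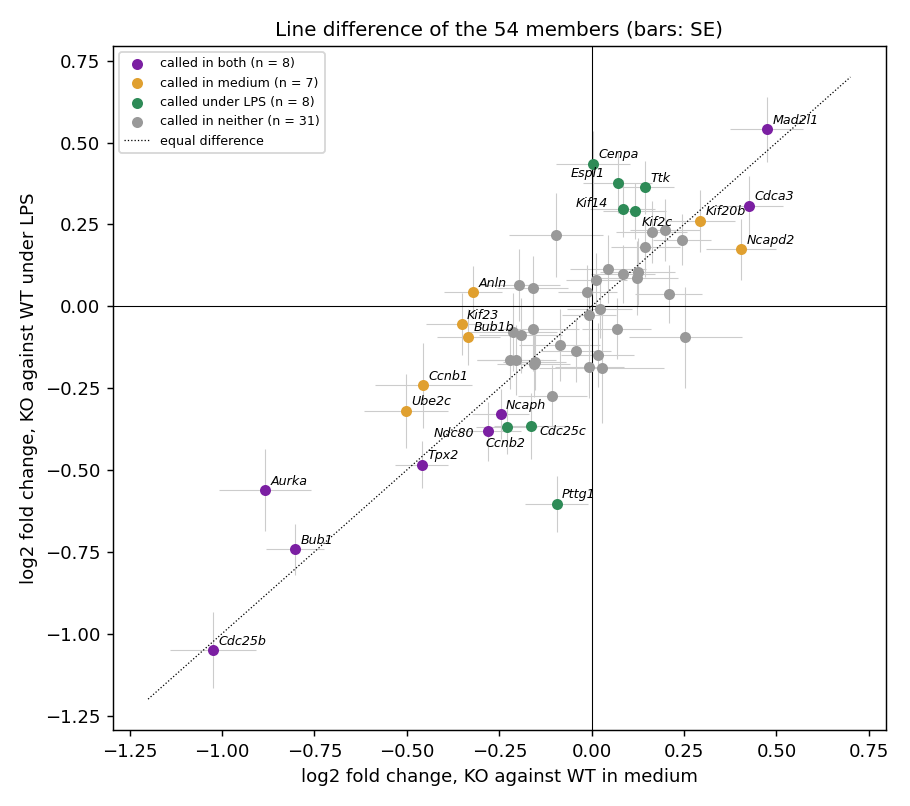
Log2 fold change, KO against WT, under LPS (vertical axis) against the same in medium (horizontal axis) for the 54 genes, with bars of 1 SE, colours for the conditions in which the edgeR adjusted p was under 0.05, and a dotted line where both differences are equal. Cdc25b lies furthest down at -1.02 and -1.05, Mad2l1 furthest up at 0.47 and 0.54, and Pttg1 lies off the line at -0.09 and -0.60.

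The cyclins and CDC25 phosphatases held the widest line difference. Cdc25b averaged 148 ± 10.4 CPM (SD, n = 3) in WT medium and 72.7 ± 1.24 in KO medium, and 92.4 ± 13 and 44.6 ± 6.22 under LPS. Every KO library lay below every WT library of the same treatment, at -1.02 ± 0.12 in medium (edgeR adjusted p = 0.000102) and -1.05 ± 0.12 under LPS (5.97e-05). Ccnb1 was lower in KO medium (-0.46 ± 0.13, 0.0320), a call lost without WT medium replicate 1 or 3 or KO medium replicate 1 or 3, adjusted p = 0.0613 to 0.0895, and at -0.24 ± 0.13 under LPS (0.251). Its pseudogene Ccnb1-ps, with which it shares sequence, averaged 79.6 CPM in WT medium and 70.7 in KO medium, and 77.0 and 63.5 under LPS. Ccnb2 was lower in KO under LPS (-0.37 ± 0.08, 0.00735) and at -0.23 ± 0.08 in medium (0.0732). Cdc25c was lower under LPS (-0.37 ± 0.10, 0.0220; lost without WT LPS replicate 1 or 3 or KO LPS replicate 1 or 3, adjusted p = 0.0501 to 0.0914), while Ccna2 (0.16 ± 0.10 and 0.23 ± 0.10) and Foxm1 (0.08 ± 0.09 and 0.10 ± 0.09) passed in neither condition.

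Of the kinases, 3 were lower in KO medium, and 2 lower and 1 higher under LPS. Aurka read 76.5, 70.3 and 80.3 CPM in WT medium and 81.1, 75.7 and 86.6 in WT LPS. KO libraries of Aurka read 37.7, 45.5 and 39.9 CPM in medium and 45.8, 66 and 53.1 under LPS. In medium every KO library of Aurka was below 46 CPM and every WT library above 70 (-0.88 ± 0.13, edgeR adjusted p = 0.000489), and under LPS the groups stayed apart (-0.56 ± 0.12, 0.00702). Bub1 read 111, 109 and 119 CPM in WT medium and 133, 124 and 135 in WT LPS. KO libraries of Bub1 read 65.1, 66.7 and 63 CPM in medium and 72.9, 86.5 and 75.3 under LPS. Bub1, whose product recruits the checkpoint to kinetochores, was lower in KO in medium (-0.80 ± 0.08, 3.03e-05) and under LPS (-0.74 ± 0.08, 3.68e-05), again with no overlap. Bub1b was lower in KO medium (-0.33 ± 0.09, 0.0187; lost without WT medium replicate 3, adjusted p = 0.0591), and Ttk was higher in KO under LPS (0.36 ± 0.08, 0.00691). Cdk1 (0.01 in medium, 0.08 under LPS), Plk1 (-0.21, -0.08), Aurkb (-0.01, -0.03) and Nek2 (-0.16, -0.07) passed in neither condition.

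Among checkpoint, APC/C and cohesin-cleavage genes, 2 were higher and 1 lower in KO medium, and 3 were higher and 1 lower under LPS. Mad2l1 read 37.9, 31.8 and 35.8 CPM in WT medium and 34, 28.6 and 31.7 in WT LPS. KO libraries of Mad2l1 read 50.6, 48.3 and 47.7 CPM in medium and 41.1, 51 and 45.1 under LPS. Mad2l1 was the member with the highest log2 fold change, 0.47 ± 0.10 in medium (edgeR adjusted p = 0.00610) and 0.54 ± 0.10 under LPS (0.00218), and each KO library exceeded each WT library. Cdca3 was higher in KO in medium (0.43 ± 0.09, 0.00713) and under LPS (0.31 ± 0.09, 0.0331; lost without WT LPS replicate 1 or 2 or KO LPS replicate 2 or 3, adjusted p = 0.0578 to 0.116). Espl1 was higher in KO under LPS (0.38 ± 0.09, 0.0132; lost without WT LPS replicate 1 or 2, adjusted p = 0.0562 to 0.0571). Pttg1 was at -0.09 ± 0.08 in medium (0.431) and lower in KO under LPS (-0.60 ± 0.08, 0.000346), where its KO libraries ended at 14.1 CPM and its WT libraries began at 19.6. Ube2c was lower in KO medium (-0.50 ± 0.11, 0.00980) and at -0.32 ± 0.11 under LPS (0.0714), and Cdc20 passed in neither (-0.10 ± 0.13 and 0.22 ± 0.13).

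Tpx2 was lower in KO in both conditions without overlap (-0.46 ± 0.07, edgeR adjusted p = 0.000877, and -0.48 ± 0.07, 0.000465), and it and Cdc25b were the members called in all 4 comparisons. Among the other spindle and cytokinesis genes, Anln was lower in KO medium (-0.32 ± 0.08, 0.0147), and Prc1, Hmmr, Ect2 and Racgap1 were not called. The kinesins gave Kif23 lower (-0.35 ± 0.10, 0.0251; lost without WT medium replicate 1 or 3 or KO medium replicate 1 or 3, adjusted p = 0.0552 to 0.0738) and Kif20b higher (0.29 ± 0.09, 0.0487; lost without WT medium replicate 1, 2 or 3, WT LPS replicate 1, 2 or 3, KO medium replicate 1, 2 or 3 or KO LPS replicate 3, adjusted p = 0.0636 to 0.206) in KO medium. Under LPS they gave Kif14 (0.30 ± 0.09, 0.0315; lost without WT medium replicate 1, WT LPS replicate 1, 2 or 3, KO medium replicate 3 or KO LPS replicate 2 or 3, adjusted p = 0.0562 to 0.128) and Kif2c (0.29 ± 0.08, 0.0309; lost without WT medium replicate 1, WT LPS replicate 1, 2 or 3, KO medium replicate 1, 2 or 3 or KO LPS replicate 2 or 3, adjusted p = 0.0509 to 0.124) higher. Kif11 missed the threshold in both conditions (0.24 ± 0.08, 0.0513, and 0.20 ± 0.08, 0.0981).

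At the kinetochore, Ndc80, the subunit that gives the microtubule-binding complex its name, was lower in KO under LPS (-0.38 ± 0.09, edgeR adjusted p = 0.00940) and in medium (-0.28 ± 0.09, 0.0473; lost without WT medium replicate 1 or 3, WT LPS replicate 1, 2 or 3, KO medium replicate 1, 2 or 3 or KO LPS replicate 3, adjusted p = 0.0599 to 0.168). Cenpa was higher in KO under LPS (0.44 ± 0.10, 0.00870) and level in medium (0.00 ± 0.10), and Cenpf passed in neither (-0.01 ± 0.08 and 0.04 ± 0.08). In the condensin group, Ncaph was lower in KO under LPS (-0.33 ± 0.08, 0.00924) and in medium (-0.25 ± 0.08, 0.0436; lost without WT medium replicate 1 or 3, WT LPS replicate 1 or 3, KO medium replicate 1, 2 or 3 or KO LPS replicate 3, adjusted p = 0.0572 to 0.126), and Ncapd2 was higher in medium (0.40 ± 0.09, 0.0118). Top2a (-0.01 and -0.19), Mki67 (0.25 and -0.10) and Birc5 (0.12 and 0.09) were not called. In medium 9 of 15 calls and under LPS 11 of 16 were kept without any single library, and 6 and 11 were kept under every alternative.

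Whether the LPS effect itself differed between the lines was tested as the LPS effect in KO minus that in WT. No member was called by edgeR, against 0.693% of all genes called higher and 0.908% lower, and 1.6% and 1.48% of the protein-coding genes of like abundance. At an unadjusted p under 0.05 there were 5 of 54 (Pttg1, Cenpa, Anln, Espl1 and Kif23), with 3628 of 26420 over all genes, and DESeq2 called 1 lower and 0 higher. Pttg1 had the widest difference, -0.51 ± 0.12 (edgeR adjusted p = 0.0660), a rise of 1.69-fold in WT and 1.19-fold in KO. It passed with DESeq2 (adjusted p = 0.0219), the stricter filter (0.0324), protein-coding genes only (0.0107) and without WT medium replicate 2 (0.0443), and the other alternatives gave 0.0587 to 0.218. Anln (0.36 ± 0.11, 0.164) passed without WT medium replicate 2 (0.0455). Cenpa was at 0.43 ± 0.14 (0.198), Espl1 at 0.31 ± 0.13 (0.333) and Kif23 at 0.30 ± 0.14 (0.363).

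The 18 genes called in none of the 4 comparisons between groups were Nek2, Ccna2, Kif11, Kif20a, Kif4, Kif22, Cenpf, Nuf2, Spc25, Ska1, Ska3, Incenp, Cdca8, Ect2, Racgap1, Smc4, Ncapg and Mki67. In counts simulated for these 4 comparisons, 46 to 58 of 100 genes changed 2-fold were recovered. This rate was not computed for the members, and the recovery of changes in them was not tested. The median SE of the members was 0.094 in each of these comparisons, and Ttk was called under LPS in KO at -0.23 ± 0.08. Small changes in the 18 genes could still be missed. Calls fell on 9 members in 1 comparison, on 19 in 2, on 6 in 3 (Aurka, Bub1, Ttk, Ube2c, Pttg1 and Kif14) and on 2 in all 4.

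Genes of the preceding cell cycle phase were set beside the members. Of 25 G1/S and DNA replication genes, 1 rose and 12 fell under LPS in WT, with a median log2 fold change of -0.32, and 0 rose and 15 fell in KO, with a median of -0.36. Of all genes tested, 16.3% were called higher and 16.3% lower in WT, and 25.3% and 26.8% in KO. E2f1, the activating E2F of G1/S, went from 60.8, 57.4 and 62.6 to 24.6, 23.4 and 26.5 CPM in WT and from 47.4, 50.3 and 48.6 to 21.2, 31.4 and 23.9 in KO (-1.28 ± 0.12, edgeR adjusted p = 1.35e-05, and -0.94 ± 0.12, 0.000153). Cdc6, which loads the replicative helicase, fell as well (-1.19 ± 0.19, 0.000627, and -0.79 ± 0.19, 0.00546), as did E2f2 (-1.02 ± 0.10, 1.91e-05, and -0.84 ± 0.10, 8.96e-05). Cyclin E1, Ccne1, fell in WT (-1.10 ± 0.35, 0.0327; lost without WT medium replicate 2 or WT LPS replicate 1, 2 or 3, adjusted p = 0.0621 to 0.103). Between the lines the list had 2 higher and 3 lower in KO medium and 3 and 3 under LPS, with medians of 0.05 and 0.01. Of all genes tested, 6.88% were higher and 12.3% lower in KO medium, and 7.87% and 12.7% under LPS. The helicase subunit Mcm2 was higher in KO (0.58 ± 0.13, 0.00853, and 0.63 ± 0.13, 0.00426), and the polymerase clamp Pcna was lower (-0.46 ± 0.08, 0.00181, and -0.54 ± 0.08, 0.000451). Pcna shared 23.3% of its 31-mers with another gene, mostly the processed pseudogene Pcna-ps2, so its line difference is uncertain. Mcm10, a replication fork factor, was the G1/S gene whose LPS effect differed between the lines (-0.58 ± 0.11, 0.0215; lost without WT medium replicate 1, WT LPS replicate 1, 2 or 3, KO medium replicate 1, 2 or 3 or KO LPS replicate 1 or 3, adjusted p = 0.0509 to 0.0935), with a rise in WT (0.61 ± 0.08, 9.35e-05) and 0.03 ± 0.08 in KO. The mean log2 CPM of the members minus that of the G1/S list, which does not depend on the scaling, was 0.08 ± 0.04 (SD, n = 3) in WT medium and 0.56 ± 0.05 in WT LPS, and 0.03 ± 0.04 in KO medium and 0.52 ± 0.09 in KO LPS. In each line the 3 LPS libraries lay above the 3 in medium, and no test was made of this difference of lists.

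**Figure D5:**
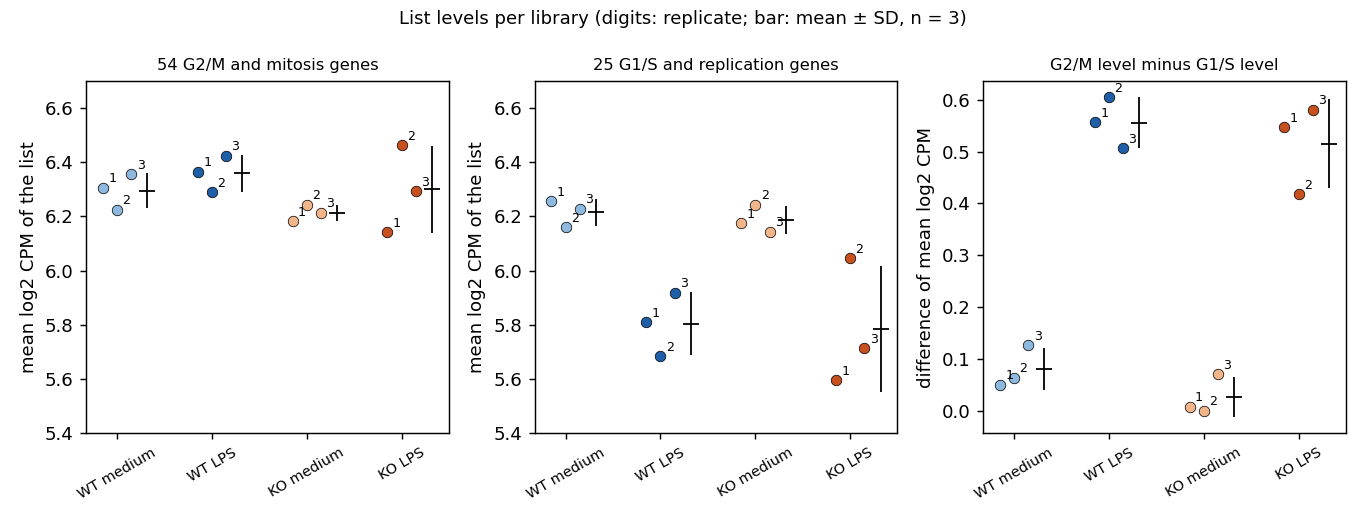
Mean log2 CPM per library of the 54 members (left), of 25 G1/S and replication genes (middle) and their difference (right), with the replicate number beside each point and bars for the mean ± SD (n = 3). On the TMM scale, the member levels lie between 6.14 and 6.46 and overlap except between KO medium and WT LPS, and this overlap depends on the scaling. The G1/S levels are lower under LPS, and the difference is 0.42 to 0.60 in the LPS libraries and 0.00064 to 0.13 in medium.

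A longer list of 76 further G2/M and mitosis genes had 20 rises and 11 falls under LPS in WT and 24 and 12 in KO, and in KO against WT 4 higher and 17 lower in medium and 8 and 15 under LPS. Its median log2 fold changes in these 4 comparisons were 0.03, 0.08, -0.07 and 0.02, against -0.07, -0.03, 0.04 and 0.07 over all genes tested. Of all genes tested, 16.3% were called higher and 16.3% lower under LPS in WT, and 25.3% and 26.8% in KO. For KO against WT these shares were 6.88% and 12.3% in medium, and 7.87% and 12.7% under LPS. Among protein-coding genes in the members' range of mean CPM, the 4 pairs of shares were 36.7% and 14.3%, 41.8% and 13.5%, 9.2% and 24.5%, and 14.7% and 25.4%. Zwint, a kinetochore protein, rose in both lines (0.76 ± 0.06, edgeR adjusted p = 3.09e-06, and 0.85 ± 0.06, 1.34e-06), as did Plk4, the kinase of centriole duplication (0.60 ± 0.06, 3.42e-05, and 0.75 ± 0.06, 5.94e-06). Psrc1, a microtubule regulator of the spindle, fell in both (-0.88 ± 0.16, 0.00163, and -1.16 ± 0.16, 0.000248), and Ckap2l, a spindle protein, rose in both (0.45 ± 0.09, 0.00281, and 0.85 ± 0.09, 2.82e-05). Ckap5, a microtubule polymerase, was lower in KO in medium (-0.84 ± 0.08, 1.67e-05) and under LPS (-0.91 ± 0.08, 6.34e-06). Mastl, the greatwall kinase that restrains the phosphatase opposing CDK1, was lower in KO under LPS (-1.04 ± 0.12, 6.25e-05), as was the centromere protein Cenpw (-0.74 ± 0.10, 0.000236). In medium the centromere protein Cenpo (-0.71 ± 0.11, 0.00122) and the spindle protein Fam83d (-0.77 ± 0.16, 0.00553) were lower in KO.

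Among 11 DREAM and MYB-MuvB regulators, 3 rose and 3 fell under LPS in WT and 4 and 3 in KO, and 3 were higher and 2 lower in KO in medium and 4 and 2 under LPS, with medians of 0.0027, -0.02, -0.05 and 0.28. For this list and the APC/C list below, the shares of all genes called are those given above with the longer list. Tfdp2, a dimer partner of E2F, fell in both lines (-1.18 ± 0.17, edgeR adjusted p = 0.000266, and -1.22 ± 0.17, 0.000223), as did Rbl2, a pocket protein of DREAM (-1.08 ± 0.14, 0.000144, and -0.92 ± 0.14, 0.000499). E2f5, a repressive E2F, rose in both (0.65 ± 0.07, 1.95e-05, and 0.70 ± 0.07, 1.26e-05). Mybl2, the MYB of the MuvB complex at G2/M promoters, was lower in KO in medium (-0.65 ± 0.16, 0.0152; lost without KO medium replicate 1 or 3, adjusted p = 0.0511 to 0.0590) and under LPS (-0.65 ± 0.16, 0.0129; lost without KO LPS replicate 1 or 3, adjusted p = 0.0519 to 0.0597). The MuvB subunit Lin52 was lower in KO medium (-0.60 ± 0.13, 0.00733), and the E2F partner Tfdp1 was higher in KO under LPS (0.53 ± 0.11, 0.00405). Mybl2 and Tfdp1 shared 21.0% and 21.7% of their 31-mers with other genes, mostly processed pseudogenes, so their line differences are uncertain. Of 14 APC/C core subunits, 2 rose and 0 fell under LPS in each line, 1 was higher and 3 lower in KO medium, and 2 and 3 under LPS, with medians of 0.09, 0.05, -0.01 and 0.01. Cdc27 rose in both lines (0.67 ± 0.07, 3.63e-05, and 0.74 ± 0.07, 1.90e-05). Anapc4 passed in both (0.20 ± 0.07, 0.0460, and 0.20 ± 0.07, 0.0324), but its direction turned with library size alone (-0.13 and -0.06), and the WT call was lost on leaving out any 1 library other than KO LPS replicate 2 (adjusted p = 0.0506 to 0.389). The KO call was lost without WT medium replicate 1, 2 or 3, KO medium replicate 1, 2 or 3 or KO LPS replicate 2 or 3, adjusted p = 0.0673 to 0.223. Anapc2 was lower in KO in medium (-0.56 ± 0.12, 0.00824) and under LPS (-0.70 ± 0.12, 0.00162), as was Anapc1 (-0.34 ± 0.08, 0.0124, and -0.46 ± 0.08, 0.00161). Cdc16 was higher in KO in medium (0.34 ± 0.07, 0.00464), and Cdc26 was higher under LPS (0.46 ± 0.07, 0.000741).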

How the data were processed

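RNA sequencing counts of 12 libraries were analysed, 3 in each of 4 groups (WT or KO line, medium or LPS). The values are the raw read counts per Ensembl gene that the authors deposited. FastQC 0.11.9, Trimmomatic 0.39, STAR 2.7.9a, featureCounts, DESeq2 1.32.0 and the GRCm39 build are named in the submitters' processing notes. Which annotation release and strand setting were used, and how multi-mapping reads were treated, is not given in the sources used here. Overlapping or near-identical genes can therefore exchange counts.

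Symbols, gene classes, exon lengths and shared 31-mers came from GENCODE M21 on GRCm38, and no coordinates of it were used; 52083 of 55416 identifiers had a symbol. Promoters came from RefSeq on GRCm38.p6. The members and lists were chosen with earlier results of these data known. 1 entry of the other lists (Lin54) was not matched. Libraries held 39726866 to 72922794 counts.

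Genes were filtered with filterByExpr (minimum count 10), leaving 26420, of which 16173 were protein-coding. One model with a term per group was fitted to all 12 libraries with edgeR 4.0.16 in R 4.3.3 (TMM factors, quasi-likelihood test, robust), with a common biological coefficient of variation of 0.235. It gave 5 comparisons: LPS against medium in each line, KO against WT in each treatment, and the difference of the LPS effects. P-values were adjusted by Benjamini-Hochberg over all genes tested, and log2 levels used a prior count of 2. Levels between genes were compared per kb of exon. Named in the 4 comparisons between groups were 16 central genes, of which Aurka alone was given a value for the difference of effects. Named in addition were the 3 called members with the largest change in each direction, members called for the difference of effects, and the 3 called genes with the largest change of each other list. Other members are named to complete their role. Simulated counts with known changes were run through the same steps.

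Alternatives were library size alone, RLE scaling, a stricter filter (1 CPM in 3 libraries) or none, robust off, a replicate block, protein-coding genes only, the processed pseudogene share as a covariate, leaving out the 50 most abundant genes, fitting only the groups compared, DESeq2 1.42.0, and leaving out each library in turn.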

Additional observations from a re-analysis of the deposited data

How the results depend on the processing

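Of the members' counts, library size alone moved the LPS rises from 11 to 2 in WT and from 17 to 5 in KO, the falls from 7 to 26 and from 7 to 24, the medians from 0.10 to -0.24 and from 0.07 to -0.19, and the KO against WT rises under LPS from 7 to 11. It also turned the LPS values of Cdk1 (-0.0259), Kif11 (-0.31), Cenpf (-0.33), Kif14 (-0.0826) and Anapc4 (-0.13) in WT, and of Ccna2 (-0.25), Ccnb2 (-0.23), Cenpf (-0.19), Anapc4 (-0.0583) and Pttg1 (-0.00797) in KO. By construction this setting removes the TMM factors. With protein-coding genes only, LPS falls were 14 in WT and 15 in KO, the medians 0.0040 and -0.0843, and 1 member was lower for the difference of effects. No filter gave 6 rises and 12 falls in WT, 11 falls and a median of -0.0537 in KO, and 4 members higher in KO under LPS. The stricter filter gave 12 falls in WT, 11 members higher in KO under LPS and 1 lower for the difference of effects. Fitting only the groups compared gave 15 falls in WT and 4 in KO, and could not be run for the difference of effects. RLE scaling gave 4 falls in KO and 4 members higher in KO under LPS, as did DESeq2 (4 and 4), which called 1 member lower for the difference of effects, and leaving out the 50 most abundant genes gave 4 higher under LPS.

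With the pseudogene share as a covariate, which differs between treatments, LPS rises were 6 in WT and 1 in KO, falls 1 in KO with a median of -0.0764, and KO against WT in medium had 2 higher and 4 lower. Myc under LPS in KO turned to -0.27. Calls summed over the 5 comparisons went from 111 to 49 for the further G2/M genes, 24 to 13 for DREAM, 13 to 7 for APC/C and 40 to 21 for G1/S. APC/C calls were 26 with library size alone and 21 with protein-coding genes only. Leaving out 1 library in turn gave 6 to 17 LPS rises, 5 to 11 falls and a median of 0.000888 to 0.133 in WT, 11 to 19 rises and 4 to 10 falls in KO, 6 to 12 members lower in KO medium, 3 to 11 higher and 8 to 15 lower in KO under LPS, and 0 to 1 in each direction for the difference of effects. The cause was not tested in any of these.

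The labels do not say that a replicate number marks a shared culture or day. Deviations from the group means correlated above 0.1 in 11 of 18 same-numbered pairs of libraries (-0.37 to 0.39) and in 7 of 36 pairs with different numbers. In 0 of the 4 comparisons between groups were all 3 same-numbered pairs above 0.1, and in 0 did every library correlate best with its own number, so a pairing could not be shown and the numbers were not treated as one. With a replicate block the members' calls were 11 higher and 7 lower under LPS in WT, 18 and 7 in KO, 4 and 12 in KO against WT in medium, 7 and 10 under LPS, and 0 and 0 for the difference of effects. In medium the block called Ccnb2 (adjusted p = 0.0186), Kif11 (0.0469) and Mok (0.0425) and lost Kif20b (0.0530).

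Only 1 KO line was sequenced, and 3 libraries per group leave small differences undetected.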

Other observations

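A list of 19 cell cycle inhibitors and p53-linked genes had a wider range of changes under LPS than the mitotic genes described above. In WT 10 of them rose and 2 fell (median log2 fold change 0.64, from -0.91 to 4.06). In KO 12 rose and 3 fell (median 0.72, from -1.11 to 4.21). Among all genes tested, 16.3% were called higher and 16.3% lower in WT, and 25.3% and 26.8% in KO. Among protein-coding genes in the members' range of mean CPM, these shares were 36.7% and 14.3%, and 41.8% and 13.5%. The genes named below were chosen by the size of their change, and all of them rose. Plk2, a stress-induced polo-like kinase, went from 60.6, 47.3 and 47.6 to 921, 823 and 851 CPM in WT and from 37.7, 22.2 and 38.2 to 703, 525 and 580.2 in KO, and no LPS library overlapped the medium libraries (4.06 ± 0.22, edgeR adjusted p = 1.50e-07, and 4.21 ± 0.22, 1.24e-07). Gadd45b, a stress sensor, rose in both lines (2.17 ± 0.12, 2.47e-07, and 2.66 ± 0.13, 5.93e-08), and Cdkn1a, the CDK inhibitor p21, rose as well (2.07 ± 0.25, 9.49e-05, and 2.73 ± 0.26, 1.60e-05). Gadd45a, which can inhibit CDK1 with cyclin B, had a LPS effect that differed between the lines (-1.54 ± 0.26, 0.0147; lost without WT medium replicate 1, WT LPS replicate 1 or KO medium replicate 1, adjusted p = 0.0530 to 0.0545), with a rise of 2.16 ± 0.19 in WT (7.30e-06) and 0.63 ± 0.18 in KO (0.0148).

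Of 6 genes of G1 (D cyclins, their kinases and Myc), 2 rose and 2 fell under LPS in WT and 3 rose and 1 fell in KO. By comparison, WT had 16.3% of all genes tested called higher under LPS and 16.3% called lower. KO had 25.3% called higher and 26.8% called lower. The shares for protein-coding genes of like abundance are those given above with the inhibitor list. Whether these 6 genes differed from either background was not tested. Ccnd1, cyclin D1, differed in its LPS effect between the lines (0.86 ± 0.13, edgeR adjusted p = 0.00830). It read 80.3, 65.2 and 68.2 CPM in WT medium and 37.4, 35.6 and 38.5 in WT LPS (-0.94 ± 0.09, 1.61e-05), and 59.6, 65.1 and 60.6 and 53, 59.8 and 62.9 in KO (-0.08 ± 0.09, 0.501). Ccnd2, cyclin D2, rose under LPS in both lines (0.57 ± 0.09, 0.000794, and 0.65 ± 0.09, 0.000320), as did Cdk6, a kinase partner of the D cyclins (1.37 ± 0.17, 8.79e-05, and 1.95 ± 0.17, 6.68e-06). Myc was at 1.09 ± 0.64 in WT (0.213) and 2.59 ± 0.68 in KO (0.00974), a KO value that turned to -0.27 with the pseudogene share as a covariate.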
